A study of Mus musculus with 6 samples.

Results

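The genes described here encode Rab GTPases, SNARE proteins and 2 partners of vesicle traffic, the motor gene Myo5b and the granule factor gene Hid1. They were chosen by symbol from the table of reads per gene: every symbol of the Rab, syntaxin (Stx) and Vamp series, the genes Snap23, Snap25, Snap29 and Snap47, and Myo5b and Hid1 by name. The rule found 77 genes of the 20896 in the table: 53 Rab, 12 syntaxin, 6 Vamp and 4 Snap genes, with Myo5b and Hid1. Of these, 73 passed the filter on low reads and entered the test, and Rab9b, Rab33a, Rab38 and Rab42 did not.

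The libraries came from 3 PKA dKO clones, labelled as protein kinase A double knockout, and 3 control clones, all derived from mpkCCDc11, a mouse line of the kidney collecting duct. Each clone gave 1 library of total RNA, so the spread within a group is that between clones and includes differences between clones other than the knockout. Clones of both groups grew on permeable supports for 4 days with 2% serum, insulin, dexamethasone, triiodothyronine, epidermal growth factor, selenium and transferrin. They were then held for 3 days with 0.1 nM dDAVP, a vasopressin analog, in medium without serum or hormones. No library without dDAVP was analysed here.

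Rab GTPases are molecular switches that recruit motors, tethers and coats to a vesicle and so give each compartment its identity. SNARE proteins on the vesicle (the Vamp proteins) and on the target membrane (syntaxins and the SNAP-25 relatives) pair to drive fusion. In collecting duct principal cells, vasopressin raises cyclic AMP, and PKA phosphorylates the water channel AQP2, which then accumulates in the apical membrane through vesicles that use such Rabs, SNAREs and the motor myosin Vb. The series title gives the aim of finding the signalling network that depends on PKA.

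Reads in the table numbered 38760162, 30541578 and 37854925 in dKO clones 1, 2 and 3, and 39780099, 28596444 and 42515838 in control clones 1, 2 and 3. Levels are given as CPM, reads scaled to a fixed library total after adjustment for composition, and where genes are compared with each other as CPM per kilobase of the listed transcript. No label names the genes that were edited. Prkaca, which encodes the PKA catalytic subunit alpha, had 7.52 ± 0.92 CPM in dKO clones and 99.8 ± 29.6 CPM in control clones (SD, n = 3 each), and Prkacb, of the beta subunit, had 103 ± 3.43 and 121 ± 14.7 CPM. Aqp2 had 2.64 ± 0.78 CPM in dKO clones and 232 ± 145 CPM in control clones. Among 13 markers of collecting duct epithelium, 12 were above 1 CPM in all 6 libraries, with Elf5 the exception. DKO clone 3 and control clone 1 stood apart from the other 4 libraries, with no read on 2363 and 2443 transcripts against 863 to 1045. Values within the other 4 libraries are given for members with an unadjusted p under 0.05. They are also given for the others named that had at least 10 CPM and an absolute log2 fold change over 0.2. That bound can pass over members whose values in the 4 libraries and in the 2 that stood apart go opposite ways, such as Rab5c below.

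A single gene of the set, Hid1, passed the test and was lower in dKO clones (1 of 73). Hid1 is in the set by name, and earlier results of these data had already shown it lower in dKO clones. The share of the set that passed therefore cannot be compared with the share of all genes, which is given for scale only. Over all 16683 genes, 0.168% passed (28 genes) and 0.114% passed as lower, by limma-trend with Benjamini-Hochberg adjustment over all of them and an adjusted p under 0.05. At an unadjusted p under 0.05, 4 of the 73 were lower and 2 higher, against 3.84% and 2.4% of all genes and 6.24% in either direction, a share near that background. The median log2 fold change, dKO over control, was 0.00 for the 73 genes and -0.00 for all genes tested, and 38 were positive and 35 negative, against 49.8% and 50.2% of all genes. An absolute log2 fold change under 0.5 was found for 89.0% of the 73, against 85.1% of all genes tested. In bulk RNA, fewer cells with a transcript and less of it per cell cannot be told apart.

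**Figure D1:**
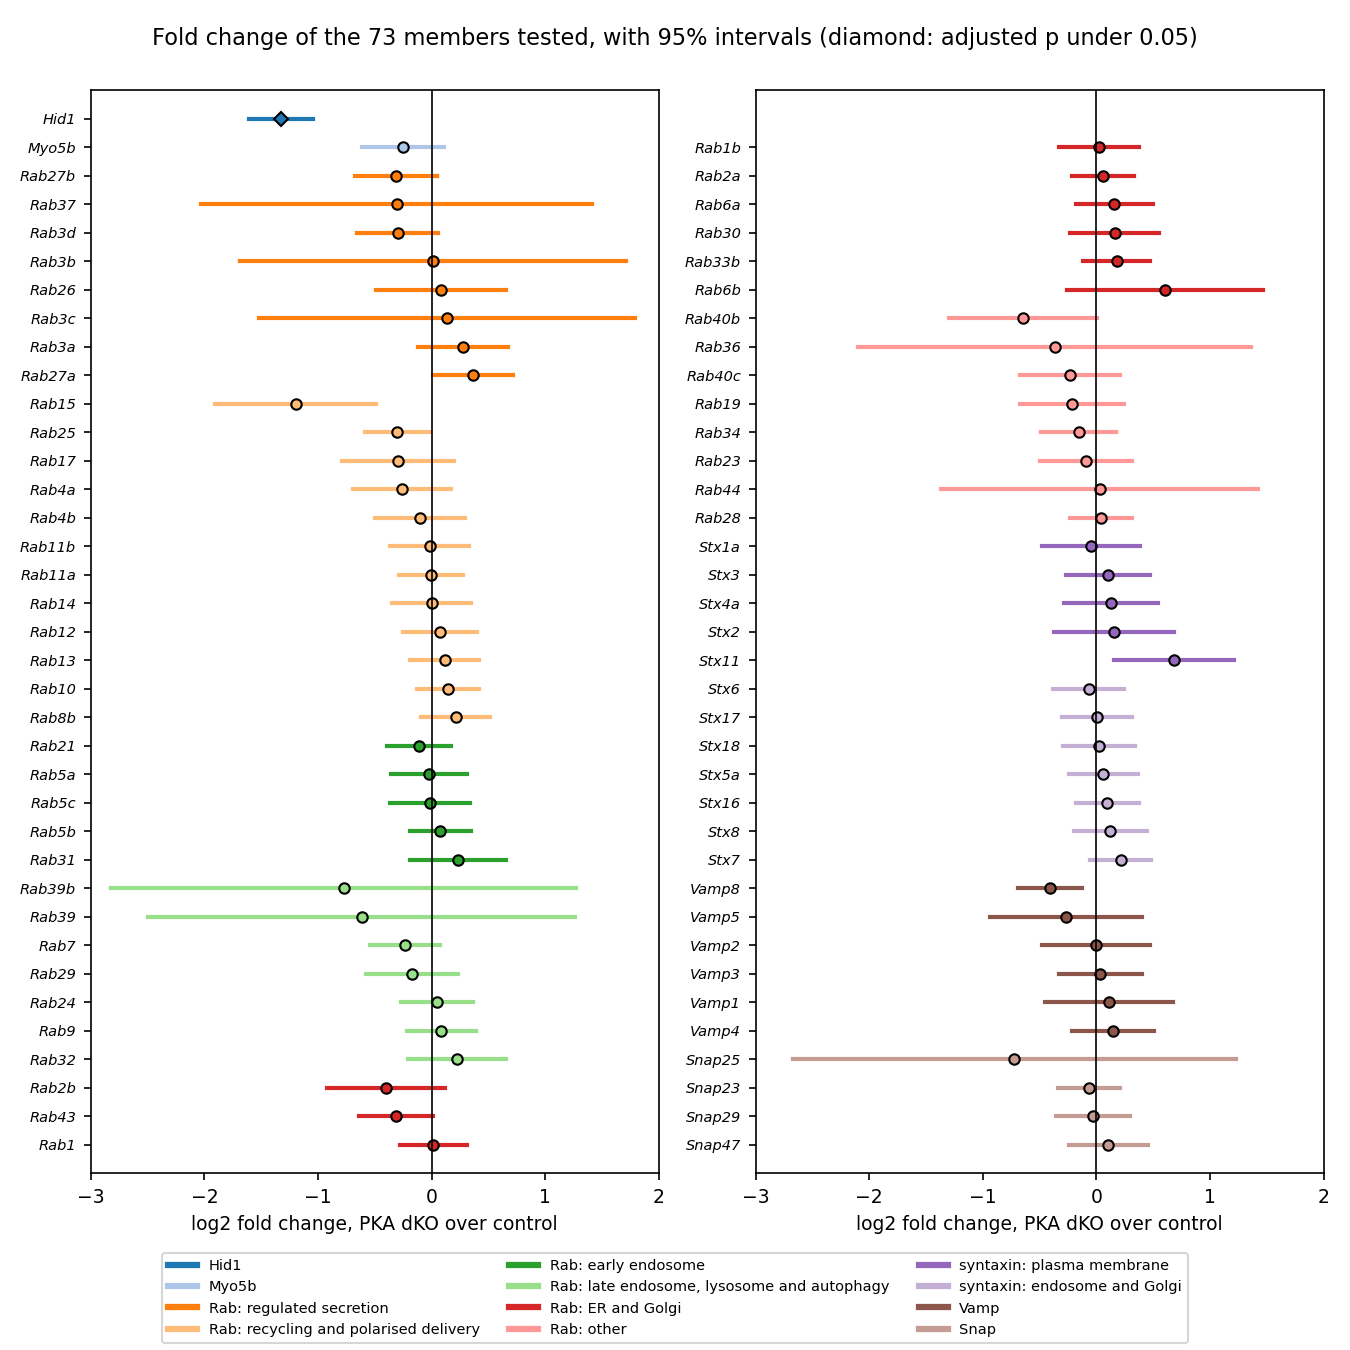
Log2 fold change (dKO over control; x axis) of each of the 73 genes tested, grouped by family and compartment (colours), with 95% intervals as lines. Hid1 is the only diamond (adjusted p under 0.05) at -1.32; Rab15 lies at -1.20 with a wide interval, and the long intervals belong to genes under 2 CPM such as Rab39b and Snap25.

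Hid1 encodes a peripheral Golgi protein that acts in the formation and maturation of dense-core secretory granules in nematodes and in mouse endocrine cells. Its transcript is ENSMUST00000106542.8 of gene ENSMUSG00000034586.14, protein-coding with 19 exons, on the minus strand of chromosome 11 from 115347707 to 115367756. It had 35.3, 31.0 and 34.2 CPM in dKO clones 1, 2 and 3, against 89.7, 85.7 and 76.6 CPM in control clones 1, 2 and 3. The 3 dKO clones lay close together and each was under every control clone. Its level averaged 33.5 ± 2.27 CPM in dKO clones and 84.0 ± 6.74 CPM in control clones (SD, n = 3 each). That is a level lower by a factor of 2.502, with 95% bounds at 2.06 and 3.04, and on the log2 scale -1.32 (SE 0.13), with a limma adjusted p of 0.00231. The difference was -1.28 within the 4 libraries other than dKO clone 3 and control clone 1, and the log2 ratio of dKO clone 3 to control clone 1 was -1.39, so it was as large with and without the libraries that stood apart. In the authors' deposited table, Hid1 had a log2 fold change of -1.35 and a false discovery rate of 1.04e-17. No exon of another annotated gene overlaps its exons.

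Genes that share the granule pathway with Hid1 did not pass the test. Of a list of 23 dense-core granule genes, 22 were in the table and 20 were tested; 0 passed over all genes and 0 had an unadjusted p under 0.05 with limma. Their median log2 fold change was -0.08, with 6 positive and 14 negative. The median SE of the list was 0.70, against 0.21 over all genes tested, and 17 of the 22 had a mean under 2 CPM. The rest were Cpe, Dnm1 and Dnm2, with log2 fold changes of -0.03 (SE 0.15), -0.04 (SE 0.23) and -0.11 (SE 0.15), and 2 with positive values. These were Ccdc186 at 0.26 (SE 0.15) and Syt7 at 0.48 (SE 0.68).

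Rab15, which acts between early and recycling endosomes, had the next lowest fold change of the 73. It had 14.4, 26.4 and 34.9 CPM in dKO clones 1, 2 and 3, against 80.2, 37.0 and 54.1 CPM in control clones 1, 2 and 3. The groups did not overlap, but dKO clone 3 and control clone 2 came within a few CPM of each other, and the clones of each group spread more than 2-fold. The log2 fold change was -1.20 (SE 0.32, 95% bounds -1.91 and -0.49), with a limma adjusted p of 0.299. It was -1.19 within the 4 libraries, where it passed (limma adjusted p = 0.000475; 3% of all genes passed there). It also passed with DESeq2 (adjusted p = 0.00951; 1.71% of all genes), but not with edgeR's quasi-likelihood test (adjusted p = 0.291; 0.168% of all genes). The authors' deposited table gives Rab15 a log2 fold change of -1.19 and a false discovery rate of 0.00100. That table holds 63 of the 77 genes, of which Hid1 and Rab15 were under a false discovery rate of 0.05, against 3.47% of its 10190 transcripts.

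Vamp8, an R-SNARE of late endosomes and regulated exocytosis that has been found on vesicles carrying AQP2, had 84.0, 72.3 and 66.5 CPM in dKO clones 1, 2 and 3, against 99.5, 100.4 and 94.9 CPM in control clones 1, 2 and 3. All dKO values lay below all control values. On the log2 scale the difference was -0.41 (SE 0.13), and the limma adjusted p of 0.432 missed the threshold. Vamp8 lies on chromosome 6, whose 877 tested genes had a median log2 deviation of -0.40 in dKO clone 3. With each library's chromosome medians removed, the log2 fold change of Vamp8 was -0.24. Within the 4 libraries it was -0.32, and the log2 ratio of dKO clone 3 to control clone 1 was -0.58.

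Rab25, an epithelial member of the Rab11 subfamily that acts in apical recycling, had 107, 91.6 and 117 CPM in dKO clones, against 137, 127 and 123 CPM in control clones. The groups did not overlap, and the difference was -0.30 on the log2 scale (SE 0.13), with a limma adjusted p of 0.734 (-0.33 within the 4 libraries). The members with positive values and an unadjusted p under 0.05 were Stx11 and Rab27a. Stx11, a syntaxin needed for granule exocytosis in cytotoxic lymphocytes, had 11.7, 11.6 and 17.2 CPM in dKO clones and 6.67, 10.6 and 7.88 CPM in control clones. Its fold change was 0.68 on the log2 scale (SE 0.24), with a limma adjusted p of 0.546. It was 0.35 within the 4 libraries, and the log2 ratio of dKO clone 3 to control clone 1 was 1.37. Rab27a, which docks secretory granules and lysosome-related organelles, had 19.7, 21.1 and 24.6 CPM in dKO clones and 17.1, 15.6 and 17.9 CPM in control clones, which is 0.37 on the log2 scale (SE 0.16) with a limma adjusted p of 0.746 (0.30 within the 4 libraries). Rab25, Stx11 and Rab27a passed in 0 of the 20 alternative settings tried.

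**Figure D2:**
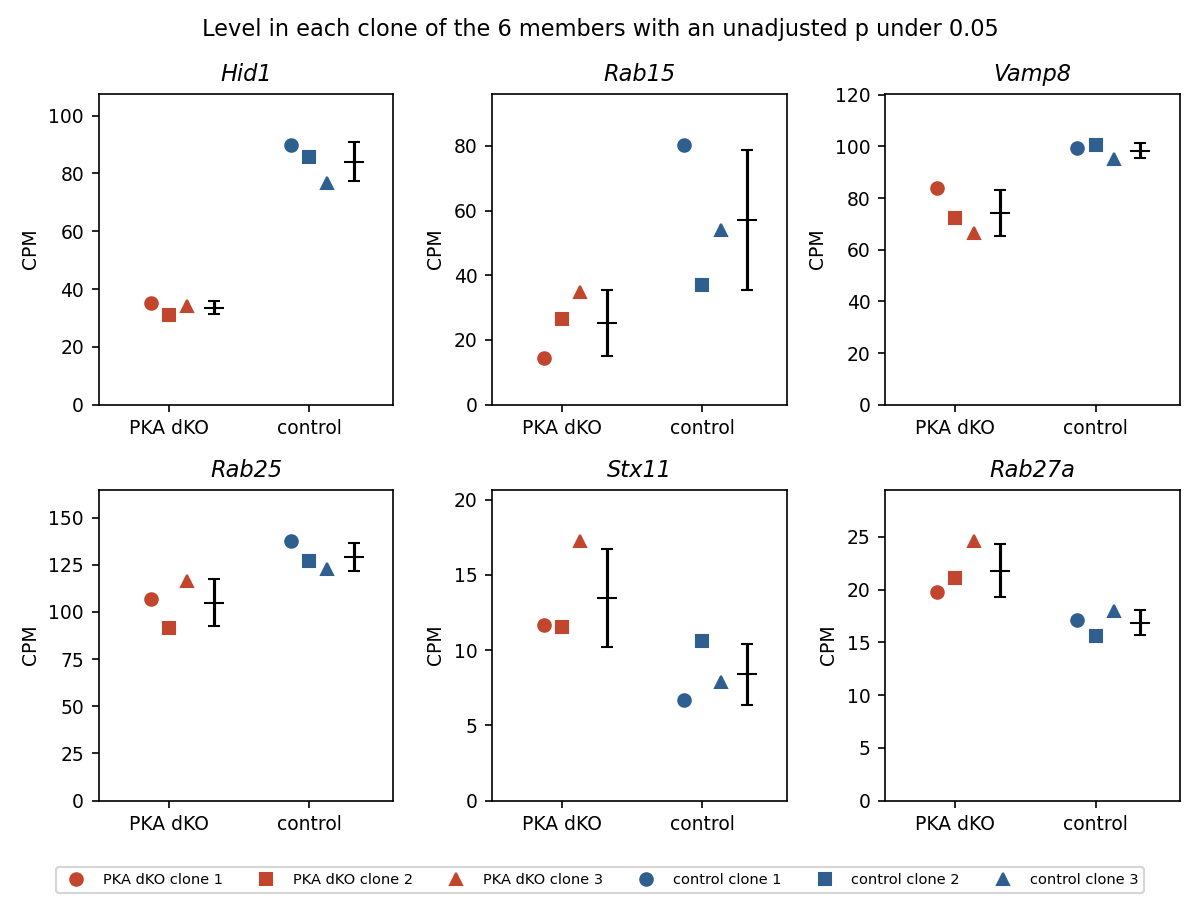
CPM (y axis, from 0) in each clone for the 6 genes with an unadjusted p under 0.05, dKO clones in red and control clones in blue, with mean and SD in black (n = 3 each). Hid1 has the widest gap relative to its spread, while the Rab15 clones scatter from 14.4 to 34.9 CPM in dKO and from 37.0 to 80.2 CPM in control clones.

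Groups that did not overlap were found for 14 of the 73 genes, 7 higher and 7 lower in dKO clones, against 10.8% of all genes tested (5.15% higher and 5.67% lower). The 7 lower were Hid1, Rab15, Vamp8, Rab25, Rab40b, Rab29 and Rab21. The 7 higher were Stx11, Rab27a, Stx7, Rab8b, Rab3a, Rab33b and Stx8. The names beyond the 6 above were given because they complete this count, and their log2 fold changes ran from -0.65 for Rab40b to 0.28 for Rab3a, none past the threshold. Rab8b, at 0.21, stood at 0.22 within the 4 libraries.

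Because PKA acts on transcription through CREB, which binds the sequence TGACGTCA (the cyclic AMP response element, or CRE), promoter windows from 250 bases before to 50 after each RefSeq start were searched for it. RefSeq windows (GRCm38.p6) were matched by symbol for 62 of the 77 genes, and Hid1 had no entry. For each gene the RefSeq start nearest to that of the counted transcript was taken, with no limit on distance. It lay 1994 bases away for Rab17, 267 for Rab6b and 265 for Stx8, whose windows do not reach the start of the counted transcript. The site TGACGTCA, which reads the same on both strands, was found in Rab25 and Rab5a, 2 of 62 (3.23%), against 2.72% of the 12342 tested genes with a window. The site lies 85 bases before the start in Rab25 and 28 bases before it in Rab5a. Its shorter core TGACG, on either strand and counted also inside the full site, was in 29 of 62 (46.8%) and in 28.1% of the tested genes with a window. The 62 include Rab9b, Rab33a and Rab42, which did not enter the test of expression, and the 29 include Rab17. The difference between these shares was not tested. No gene among the 62 passed the test of expression. Windows are shown, with every match in capitals, for the 2 genes with a full site and for Rab15 and Vamp8, which have neither form in the window. They come from chr3:88548230-88548529 (minus strand) for Rab25, chr17:53478984-53479283 (plus) for Rab5a, chr12:76822475-76822774 (minus) for Rab15 and chr6:72390618-72390917 (minus) for Vamp8.
Rab25: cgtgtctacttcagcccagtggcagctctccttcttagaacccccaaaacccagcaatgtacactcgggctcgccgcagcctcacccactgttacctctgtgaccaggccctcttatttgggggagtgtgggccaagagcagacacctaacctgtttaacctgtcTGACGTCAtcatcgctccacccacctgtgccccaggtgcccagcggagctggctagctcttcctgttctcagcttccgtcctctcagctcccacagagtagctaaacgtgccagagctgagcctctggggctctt
Rab5a: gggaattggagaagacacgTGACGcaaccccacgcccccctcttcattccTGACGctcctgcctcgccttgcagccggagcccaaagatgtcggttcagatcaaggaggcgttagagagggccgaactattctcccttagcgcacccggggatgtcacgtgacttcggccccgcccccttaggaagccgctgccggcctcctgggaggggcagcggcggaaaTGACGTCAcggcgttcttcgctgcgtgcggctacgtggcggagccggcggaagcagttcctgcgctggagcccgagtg
Rab15: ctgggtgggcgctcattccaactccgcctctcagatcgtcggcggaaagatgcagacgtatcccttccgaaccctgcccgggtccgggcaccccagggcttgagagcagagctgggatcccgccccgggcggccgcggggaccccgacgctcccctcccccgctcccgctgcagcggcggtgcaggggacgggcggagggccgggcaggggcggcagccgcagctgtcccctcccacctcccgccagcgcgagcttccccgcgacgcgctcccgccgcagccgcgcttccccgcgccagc
Vamp8: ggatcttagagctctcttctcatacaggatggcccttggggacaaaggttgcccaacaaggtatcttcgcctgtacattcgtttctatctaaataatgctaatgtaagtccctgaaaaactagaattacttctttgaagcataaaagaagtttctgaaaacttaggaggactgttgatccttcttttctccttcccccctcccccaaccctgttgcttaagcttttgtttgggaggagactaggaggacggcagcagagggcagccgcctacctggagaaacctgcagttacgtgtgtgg
Stx11 and Rab27a, whose log2 fold changes were positive (0.68 and 0.37), also had no match, so windows without a match were found for members with positive and with negative values. A match is a run of letters, and binding was not measured.

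The best known genes of the recycling route that carries AQP2, beside Rab25 above, did not pass the test, and their intervals bound the differences unequally. Rab11a, the Rab of recycling endosomes, had 73.6, 76.8 and 75.6 CPM in dKO clones and 86.2, 70.7 and 71.1 CPM in control clones, with a log2 fold change of -0.01 (SE 0.13, 95% interval -0.29 to 0.27). Its close relative Rab11b stood at -0.02 (SE 0.16, 95% interval -0.37 to 0.33). Myo5b, the myosin motor that binds Rab11 on these vesicles, had 56.6, 59.8 and 79.3 CPM in dKO clones and 90.5, 75.01 and 66.5 CPM in control clones. The Myo5b groups overlapped, and the log2 fold change was -0.25 (SE 0.16, 95% interval -0.61 to 0.11; -0.27 within the 4 libraries). Rab4a, of rapid recycling, stood at -0.26 (SE 0.20; -0.24 within the 4 libraries), and the early endosome gene Rab5a at -0.02 (SE 0.15). Rab7, of late endosomes, had 108 ± 4.31 CPM in dKO clones and 128 ± 20.1 CPM in control clones (SD, n = 3 each), a log2 fold change of -0.23 (SE 0.14) that was -0.07 with chromosome medians removed and -0.09 within the 4 libraries, against -0.51 for dKO clone 3 over control clone 1. Rab7 also lies on chromosome 6.

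Across the 12 Rab genes of recycling and polarised delivery, 0 passed over all genes, 2 had an unadjusted p under 0.05 (Rab15 and Rab25), 5 had positive and 7 negative values, and the median was -0.01. Rab17 was called in a single setting. It is an epithelial Rab of apical recycling and transcytosis, and had 19.7, 19.6 and 33.4 CPM in dKO clones and 23.3, 32.9 and 31.3 CPM in control clones. Its groups overlapped over 6 libraries (log2 fold change -0.30, SE 0.22), and within the 4 libraries it stood at -0.70 (limma adjusted p = 0.0129), against a log2 ratio of 0.52 for dKO clone 3 to control clone 1.

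Of the 8 Rab genes of regulated secretion, 0 passed the test. Rab3d, found on zymogen granules, had 58.6, 53.3 and 59.5 CPM in dKO clones and 85.5, 72.9 and 55.3 CPM in control clones, overlapping at control clone 3 (log2 fold change -0.30, SE 0.16). Rab3a, of synaptic vesicles, had 15.1, 15.7 and 15.9 CPM in dKO clones and 14.9, 10.6 and 13.4 CPM in control clones (0.28, SE 0.18). Rab27b, a partner of Rab27a in secretion, had 22.3, 25.2 and 22.6 CPM in dKO clones and 34.9, 28.4 and 24.6 CPM in control clones (-0.31, SE 0.16). Within the 4 libraries Rab3d stood at -0.18, Rab3a at 0.38 and Rab27b at -0.15, and the log2 ratio of dKO clone 3 to control clone 1 was -0.52 for Rab3d and -0.63 for Rab27b. Of these 8 genes, 5 had positive and 3 negative values, with a median of 0.05.

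In the other Rab groups, 0 genes had an unadjusted p under 0.05. The 9 tested genes of the ER and Golgi ranged from -0.40 to 0.60, the 5 of early endosomes from -0.11 to 0.23, and the 7 of late endosomes, lysosomes and autophagy from -0.77 to 0.22. The remaining 8 tested genes ranged from -0.65 to 0.04. Rab39b stood at -0.77 with an SE of 0.93, and Rab6b, at 2.29, 3.10 and 2.36 CPM in dKO clones and 1.69, 2.42 and 1.13 CPM in control clones, at 0.60 with an SE of 0.39.

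Among the SNARE genes, the apical syntaxin gene Stx3 had 65.8, 75.03 and 93.9 CPM in dKO clones and 87.9, 63.9 and 66.8 CPM in control clones, a log2 fold change of 0.10 (SE 0.17, 95% interval -0.27 to 0.47). Stx4a, which encodes syntaxin 4, stood at 0.13 (SE 0.19). Vamp2, reported on AQP2 vesicles of the collecting duct, had 9.56, 13.3 and 9.26 CPM in dKO clones and 12.5, 9.16 and 10.4 CPM in control clones (-0.00, SE 0.22). Its relative Vamp3, cellubrevin, had 50.6 ± 10.5 CPM in dKO clones and 48.9 ± 5.26 CPM in control clones (SD, n = 3 each; log2 fold change 0.03). Snap23, the SNAP-25 relative found outside neurons, had 43.7, 43.4 and 48.2 CPM in dKO clones and 48.0, 47.3 and 46.3 CPM in control clones (-0.07, SE 0.12, 95% interval -0.34 to 0.20). Snap29 and Snap47, broadly expressed members of the same family, stood at -0.03 (SE 0.15) and 0.10 (SE 0.16).

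Of the 12 syntaxin genes, 10 had positive and 2 negative values, with a median of 0.10 and a range of -0.07 to 0.68. The median value lies under the median SE of 0.14. Stx11, at 0.68 (limma unadjusted p = 0.0160), and Stx7 had values above their own SE. Stx7, the late endosome syntaxin, was the syntaxin gene with the highest level and had 201, 203 and 225 CPM in dKO clones and 169, 187 and 186 CPM in control clones (0.21, SE 0.12; limma adjusted p = 0.942; 0.12 within the 4 libraries). The Golgi syntaxin gene Stx5a stood at 0.06 (SE 0.14) and Stx16, of the trans-Golgi network, at 0.10 (SE 0.13). The 6 Vamp genes ranged from -0.41 to 0.14 and the 4 Snap genes from -0.72 to 0.10.

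The precision of these clones bounds how large a missed change could be. Of the 58 members with a mean of at least 10 CPM, 40 had a 95% interval of the fold change that lay wholly inside a 1.5-fold change in either direction, and 55 inside a 2-fold change. The 3 whose intervals reached beyond 2-fold were Hid1, Rab15 and Stx11. Intervals that left the 1.5-fold range included those of Myo5b, Rab25, Vamp8, Rab3a, Rab3d, Rab4a, Rab27a and Rab27b.

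Per kilobase of transcript, the genes with the highest levels were Rab1b, of transport from the ER to the Golgi, then Rab25, Vamp8, Rab5c, of early endosomes, and Stx7. Rab1b averaged 137 ± 22.2 CPM per kilobase in dKO clones and 135 ± 21.0 in control clones. Rab25 averaged 98.1 ± 11.7 and 121 ± 6.98, Vamp8 91.3 ± 11.0 and 121 ± 3.60, Rab5c 86.2 ± 16.2 and 86.7 ± 11.5, and Stx7 84.4 ± 5.36 and 72.9 ± 4.12 CPM per kilobase in dKO and control clones (SD, n = 3 each). In dKO clones these spreads overlap from Rab25 to Stx7, so the order among those 4 is not resolved there. In control clones the spreads of Rab1b, Rab25 and Vamp8 overlap, and so do those of Rab5c and Stx7. Neither order is resolved in control clones. The place of Stx7 is not resolved either: Rab10, of polarised delivery, averaged 79.9 ± 4.48 CPM per kilobase in dKO clones and 72.2 ± 4.46 in control clones, within the spread of Stx7 in both groups. These 5 genes held 31.2%, 30.1% and 31.3% of the summed level of the 77 genes in dKO clones 1, 2 and 3, and 30.7%, 33.3% and 32.9% in control clones 1, 2 and 3. The summed level was 1568, 1509 and 1751 CPM per kilobase in dKO clones and 1798, 1580 and 1609 in control clones. The sums overlap between the groups. The near-equal means of Rab5c join opposite values. Its log2 fold change was -0.27 within the 4 libraries, and the log2 ratio of dKO clone 3 to control clone 1 was 0.50.

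**Figure D3:**
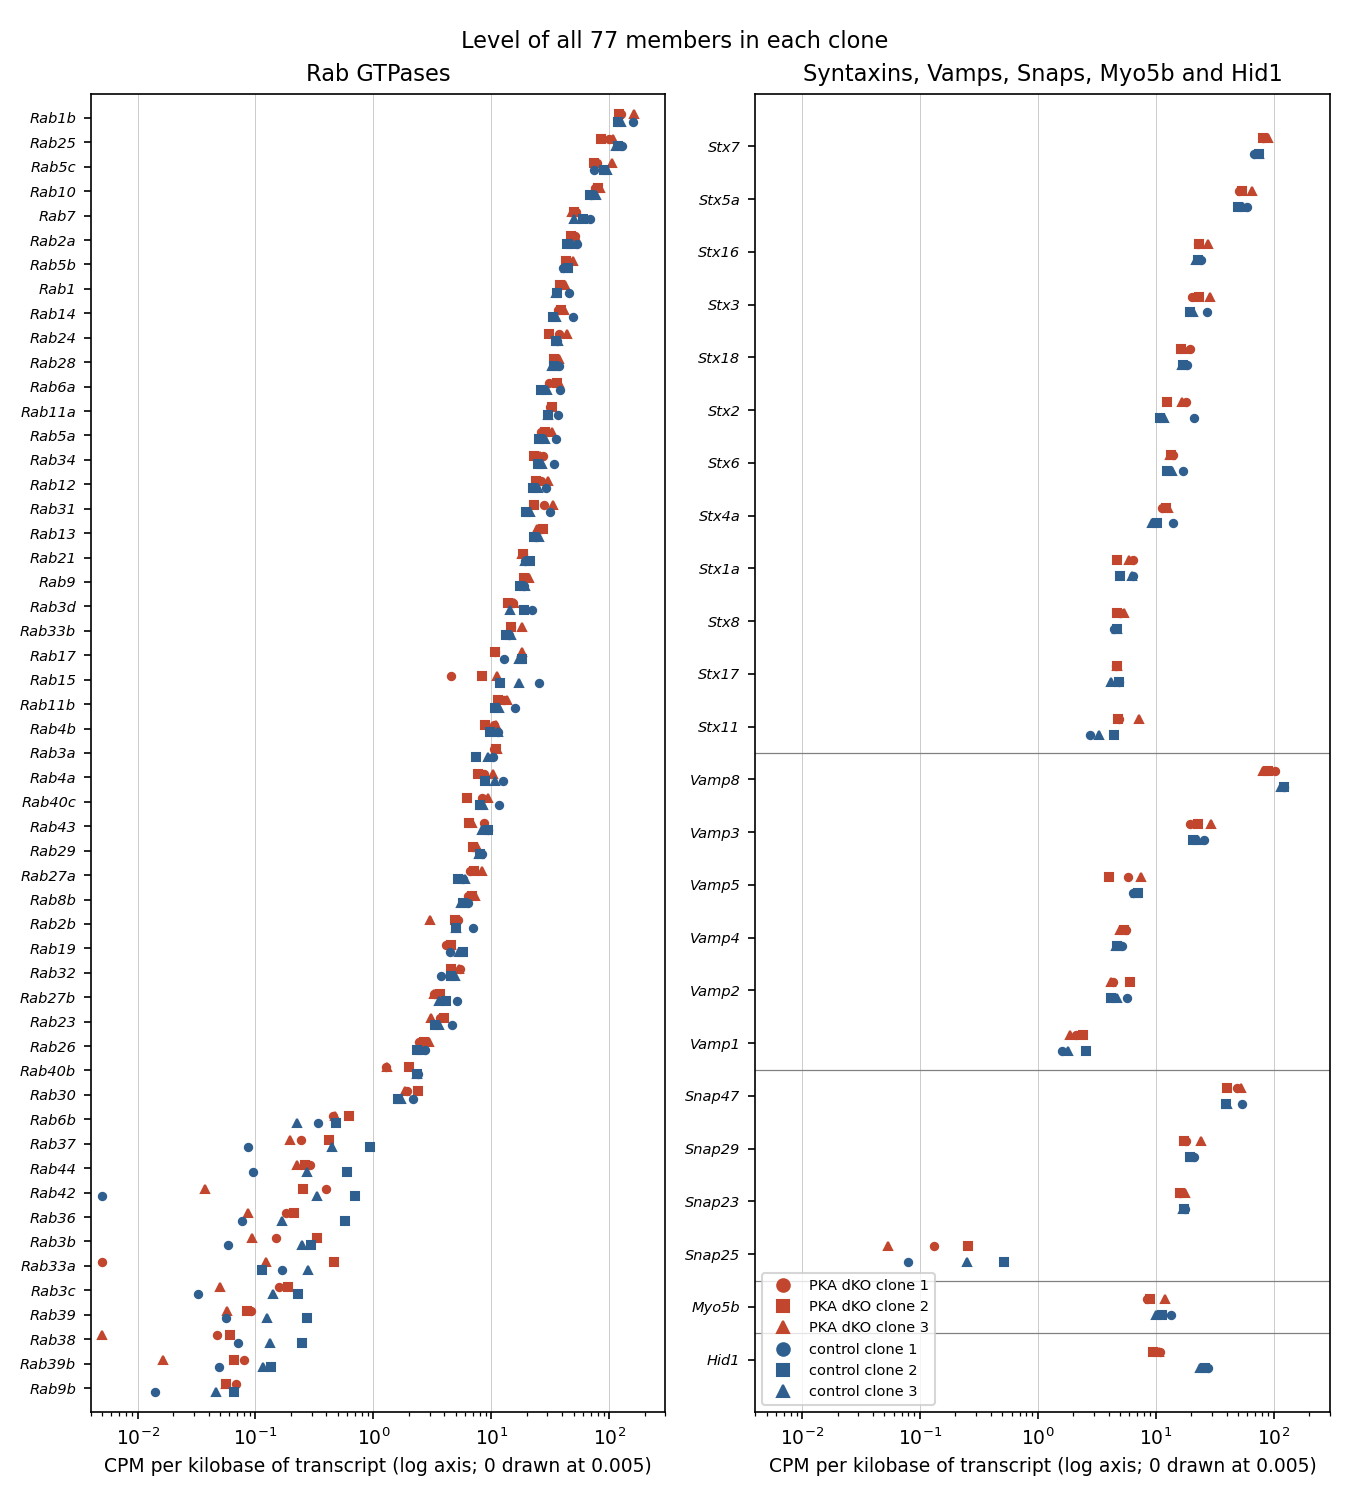
CPM per kilobase of transcript (log x axis) of all 77 genes, 1 symbol per clone, dKO in red above control in blue; a library with no read is drawn at the left edge. Levels span from Rab1b, near 137 CPM per kilobase, to Rab9b, and the genes at the bottom of the Rab panel scatter most between clones.

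Hid1 averaged 10.4 ± 0.70 CPM per kilobase in dKO clones, against 25.9 ± 2.08 in control clones, and Myo5b 9.79 ± 1.84 and 11.6 ± 1.83 (SD, n = 3 each). In control clones Hid1 was thus above Myo5b in every clone, with 27.7, 26.5 and 23.7 against 13.6, 11.3 and 9.98 CPM per kilobase. In dKO clones the 2 genes overlapped, at 10.9, 9.57 and 10.6 CPM per kilobase for Hid1 and 8.50, 8.97 and 11.9 for Myo5b.

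Within subfamilies, 1 or 2 paralogs held most of the level. Rab25 held 69.2%, 65.9% and 70.3% of the summed Rab11a, Rab11b and Rab25 level in dKO clones and 70.8%, 74.2% and 73.1% in control clones. Vamp8 held 73.3%, 68.6% and 63.0% of the Vamp level in dKO clones and 73.3%, 75.8% and 74.1% in control clones. Snap47 held 56.3 ± 2.26% and 53.6 ± 3.86% of the SNAP-25 family level (SD, n = 3 each), and the neuronal member Snap25 under 1% in every clone.

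Of 42 paralog shares in 12 subfamilies, 9 did not overlap between the groups. Rab27a held 67.2%, 66.0% and 71.6% of the Rab27 level in dKO clones, against 53.1%, 55.9% and 62.8% in control clones, the rest being Rab27b. Rab3a held 40.3%, 43.2% and 41.4% of the Rab3 level in dKO clones, against 31.7%, 27.4% and 38.7% in control clones, with Rab3d holding nearly all of the rest. These shares were singled out after their values were seen. They were not separate contrasts: the 9 lay in 5 subfamilies (Rab2, Rab3, Rab11, Rab27 and Vamp), and since shares of a subfamily add up to 100%, the share of Rab27b mirrors that of Rab27a, Rab2b that of Rab2a, and Rab3d and Rab25 nearly those of Rab3a and Rab11a. Non-overlap of levels was found for 10.8% of all genes tested; no such share was computed for paralog shares over all genes. With 3 clones against 3 the exact two-sided permutation test cannot go below p = 0.1, which both reached, and the adjusted value over the 42 shares was 0.467.

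**Figure D4:**
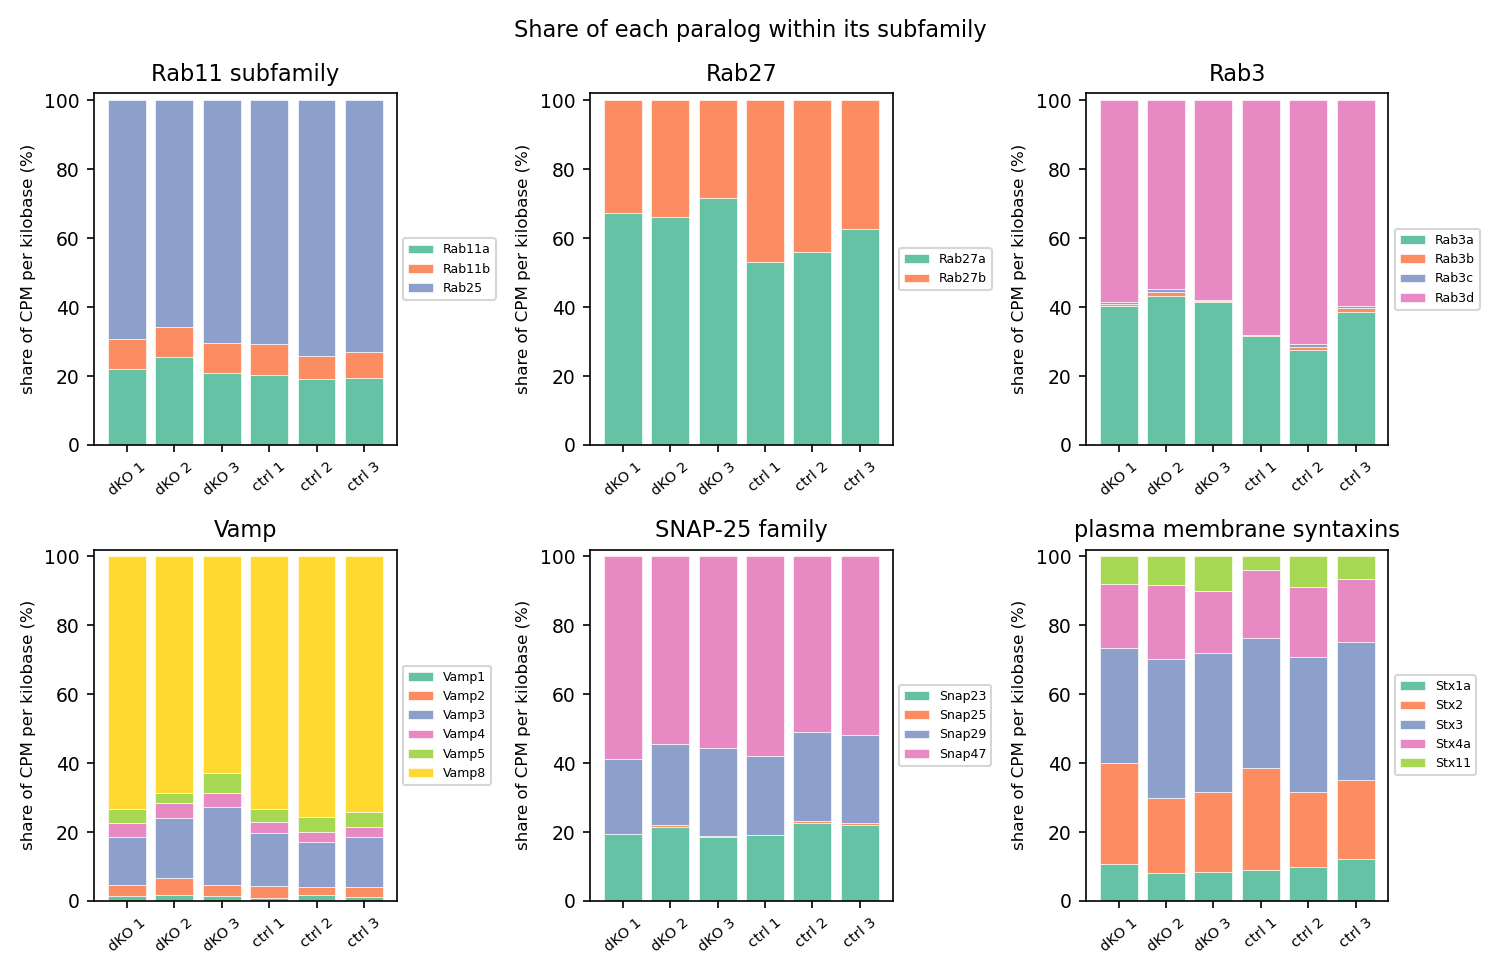
Share (percent, y axis) of each paralog in the summed CPM per kilobase of its subfamily, 1 bar per clone, dKO clones left of control clones. The lower segment of the Rab27 panel (Rab27a) runs from 66.0% to 71.6% in dKO and from 53.1% to 62.8% in control clones, while the SNAP-25 family and syntaxin panels overlap between the groups.

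Many weakly expressed members were lowest in the 2 libraries that stood apart. Of the 12 members with a mean under 2 CPM, 9 were lower in both dKO clone 3 and control clone 1 than in each of the other 4 libraries. The share over all genes at that level was not computed. Over the whole table these 2 libraries had the most transcripts without a read (2363 and 2443), so the count is not particular to these members. Snap25, the neuronal SNARE, had 0.27, 0.54 and 0.11 CPM in dKO clones and 0.17, 1.08 and 0.53 CPM in control clones. The summed level of 9 neuronal and endocrine markers was 8.95 to 15.7 CPM in dKO clones and 5.56 to 16.2 CPM in control clones, and their part in the values of Snap25 was not tested. Rab37, a Rab of secretory granules, had 0.62, 1.08 and 0.51 CPM in dKO clones and 0.22, 2.39 and 1.15 CPM in control clones. A library had no read for 3 genes: Rab33a in dKO clone 1, Rab38 in dKO clone 3 and Rab42 in control clone 1. A count of 0 allows up to 3 reads, or 0.0747, 0.0842 and 0.0830 CPM in those libraries, which covers counting error only.

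At higher levels the same libraries tended to be the upper ones. Of the 58 members with at least 10 CPM, dKO clone 3 was the highest dKO clone for 39 (67.2%, against 64.5% of all tested genes at that level) and control clone 1 the highest control clone for 43 (74.1%, against 69.7%). The median coefficient of variation of these members was 10.8% in dKO clones and 13.1% in control clones, against 10.4% and 12.4% over all tested genes at that level.

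Members on chromosomes 6, 14 and 10 were set beside the other genes of the chromosome, which had the 3 lowest medians of a single library. Shifts nearly as large as on chromosome 10 were found on chromosome 12, with a median of -0.21 in control clone 1, where Rab15 lies, and on chromosome 8, with 0.20 in control clone 1 and -0.19 in control clone 2, where Rab3a and Rab4a lie. With chromosome medians removed these 3 genes stood at -1.28, 0.30 and -0.24, against -1.20, 0.28 and -0.26 with them. On chromosome 6 the median deviation of all tested genes was -0.40 in dKO clone 3. Its 6 members did not all follow: in that clone Vamp8 deviated by -0.36, Rab43, a Golgi Rab, by -0.25, Rab7 by -0.18, Vamp1 by -0.13, Rab19 by -0.07 and Vamp5 by 0.29. Over all 6 libraries Rab43 stood at -0.31 (SE 0.15) with a limma adjusted p of 0.827, and at -0.23 within the 4 libraries. On chromosome 14 the median was -0.44 in dKO clone 3 and 0.28 in control clone 1. Rab2b, of transport between the ER and Golgi, had 15.04, 14.2 and 8.70 CPM in dKO clones and 20.1, 14.6 and 14.6 CPM in control clones, which is -0.40 on the log2 scale (SE 0.24), with its lowest value in dKO clone 3 and its highest in control clone 1. Its value within the 4 libraries was 0.01. On chromosome 10 the median was -0.23 in control clone 1, where Stx11 deviated by -0.65 and Stx7 by -0.20. Hid1 lies on chromosome 11, whose medians ran from -0.08 to 0.08 over the 6 libraries.

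**Figure D5:**
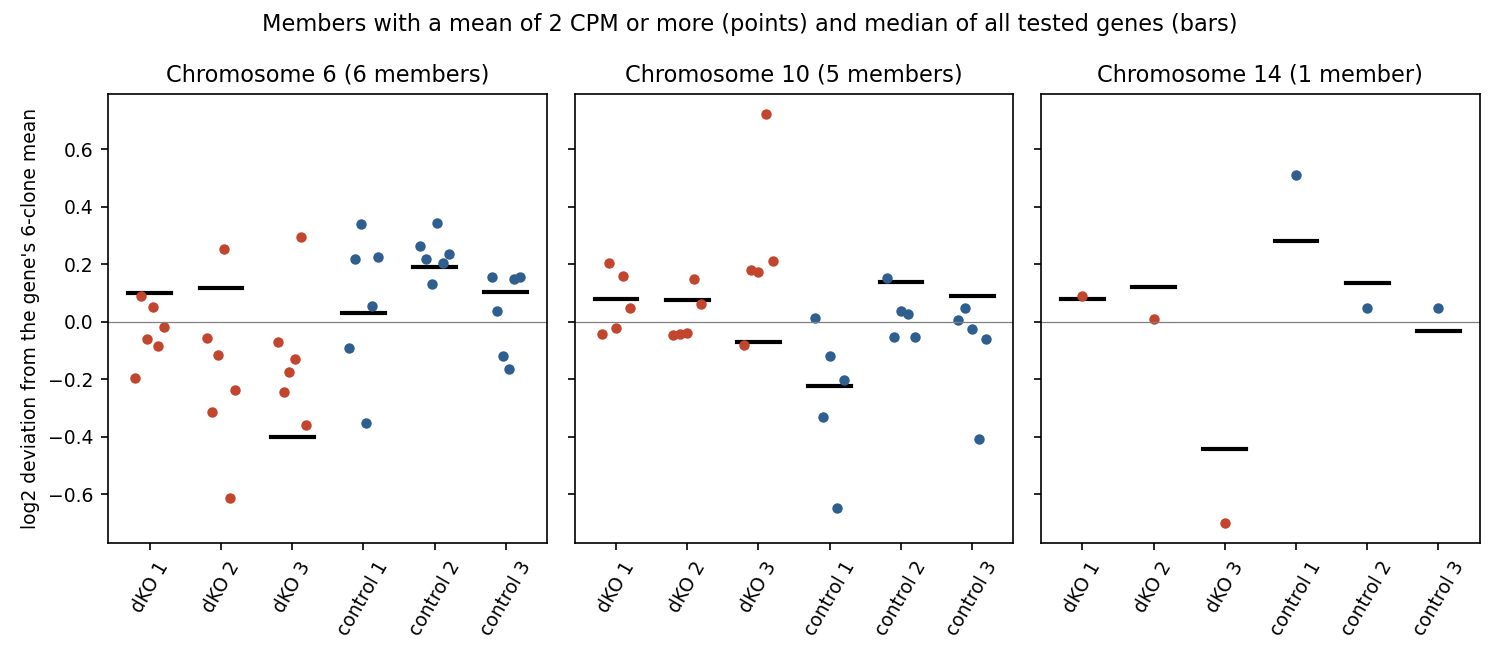
Log2 deviation of each member with a mean of at least 2 CPM from its own mean over 6 clones (points; y axis), by clone (dKO red, control blue), with the median of all tested genes on that chromosome as a bar. On chromosome 14 the single member, Rab2b, and the bar are both lowest in dKO clone 3 and highest in control clone 1.

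Genes that act with Rabs and SNAREs were counted from 6 lists. Of the 135 genes of these lists that were tested, 0 passed over all genes with limma or with edgeR's quasi-likelihood test, 6 had an unadjusted p under 0.05, against 6.24% of all genes, and DESeq2 called 1, against 1.71%. Among 39 Rab regulators and effectors, 2 were higher and 2 lower at an unadjusted p under 0.05, with a median of -0.02. Rab11fip4 and Rab11fip5, which link Rab11 to motors and membranes, went in opposite directions. Rab11fip4 had 304, 268 and 308 CPM in dKO clones and 227, 201 and 205 CPM in control clones, without overlap (0.47, SE 0.13; limma adjusted p = 0.280). It was the gene called by DESeq2, and it also passed within the 4 libraries. Rab11fip5 had 122, 94.1 and 85.7 CPM in dKO clones and 169, 127 and 126 CPM in control clones (-0.48, SE 0.17; limma adjusted p = 0.522).

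Among 27 SNARE partners and disassembly factors, 1 was higher and 1 lower at an unadjusted p under 0.05, with a median of 0.03. They were the syntaxin-binding protein genes Stxbp4 (43.0 ± 0.29 CPM in dKO and 32.5 ± 1.15 CPM in control clones; log2 fold change 0.40, limma adjusted p = 0.423) and Stxbp6 (15.2 ± 1.57 and 21.5 ± 0.65 CPM; -0.51, limma adjusted p = 0.428), each without overlap (SD, n = 3 each). Of the exocyst, which tethers vesicles at the plasma membrane, 8 genes were tested, with a range of -0.30 to 0.31. The 18 vesicle motor genes ranged from -0.37 to 0.28 and the 23 retromer, sorting nexin and coat genes from -0.21 to 0.16. None of these 3 lists held a gene with an unadjusted p under 0.05.

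Reads of some members cannot be assigned with certainty. In GENCODE M21 the exons of 18 of the 77 transcripts overlap an exon of another annotated gene, among them Rab7, Rab10, Rab11b, Rab5a, Rab3a and Snap29, and no source used here says whether counting used strand. Hid1, Rab15, Vamp8, Rab25, Stx11 and Rab27a have no such overlap.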

How the data were processed

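Total RNA (262 ng per library) was depleted of ribosomal RNA and made into stranded libraries, per the labels' protocols. Tools named in the submitters' processing notes are HOMER 4.8, STAR 2.5.2a, SAMtools and edgeR, with GRCm38.p5 as build. The deposited read columns are a signal, reads that the authors had brought to 1 total for every library; dividing by a step per library gave whole reads for 100% of values (tolerance 0.01 scaled reads). The FPKM columns deposited by the authors use library totals of which the table's reads are 31.7% to 48.7%. The libraries that stood apart had the highest shares, 48.1% in dKO clone 3 and 48.7% in control clone 1. The others had 31.7% to 39.9%. A further table deposited by the authors gives, per transcript, a log2 fold change, a log2 mean level, a p-value and a false discovery rate. Transcript lengths in bases are those listed, per the file headers.

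Differences were tested with limma-trend in limma 3.58.1 under R 4.3.3. Its input was scaled reads divided by TMM factors (edgeR 4.0.16; 0.909 to 1.07), on a log2 scale with 1 scaled read added. Fold changes are on that scale, which makes changes of low genes look smaller. Transcripts passed filterByExpr by group (minimum 10 reads, total 15). The model held group alone, with Benjamini-Hochberg adjustment over all 16683 transcripts. CPM used recovered reads and TMM-adjusted totals. DESeq2 1.42.0 and edgeR's quasi-likelihood test on recovered reads were alternatives. With 1 library per clone, p-values measure the spread between clones, which may be partly technical. The labels do not say that dKO clone numbers pair with control clone numbers, and the main model used no pairing.

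The genes and lists were chosen with earlier results of these data known. Named members are those past the threshold or with an unadjusted p under 0.05, the 3 with the highest mean FPKM per family, and a fixed list tied to water channel or granule traffic; further names complete a count or show an extreme and were chosen after their values were seen. The 6 other lists name members past the threshold and up to 2 by lowest p.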

Additional observations from a re-analysis of the deposited data

How the results depend on the processing

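Hid1 was called lower in dKO clones under all 20 alternative settings, with log2 fold changes of -1.39 to -1.27 when single clones were left out and adjusted p of 5.31e-07 to 0.0101 over the settings other than DESeq2, which gave 7.47e-16. The count of trafficking genes called was 1 in 16 of these settings. It was 2 (Hid1 and Rab15) with DESeq2, on deposited FPKM and with clone number as a replicate block, and 3 (with Rab17) within the 4 libraries other than dKO clone 3 and control clone 1; leaving out single clones gave 1 to 1. The other trafficking lists held 0 calls, except 1 (Rab11fip4) with DESeq2 and 1 within the 4 libraries. The count over all genes was 28, and it was 17 without TMM factors, 213 with DESeq2, 91 on deposited FPKM, 518 within the 4 libraries, 71 with a term for the 2 libraries that stood apart and 196 with the replicate block. It ran from 11 without dKO clone 2 to 146 without control clone 1, and was 13 without dKO clone 1 and 47 without dKO clone 3. Same-numbered clones correlated at -0.36, 0.64 and -0.34 in their deviations from the group means, and not every clone correlated best with its own number. The 2 libraries that stood apart correlated at 0.66. With 3 clones per group and that split among them, these correlations cannot decide whether the numbers pair the clones. The cause of the differences between settings was not tested.

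Of the 73 members tested, 43 kept their sign in every alternative setting. Among members named by p, by level or from the fixed list, signs turned for 10 whose values lie near 0, none of them called. Members named on other grounds turned too: Rab2b stood at -0.40 over all libraries and at 0.01 within the 4. Without TMM factors Rab11a stood at 0.00207 and Vamp2 at 0.0064. On deposited FPKM they stood at 0.0095 and 0.0118. Vamp2 stood at 0.00084 with no filter and at 0.0052 with the quasi-likelihood test. Within the 4 libraries Rab11a stood at 0.093, Rab11b at 0.095, Rab5a at 0.029, Vamp2 at 0.22 and Vamp3 at -0.035. With chromosome medians removed Rab1b stood at -0.11, Stx3 at -0.027 and Stx5a at -0.069. When single clones were left out the ranges were -0.057 to 0.092 for Rab11a, -0.13 to 0.15 for Rab11b, -0.10 to 0.15 for Rab1b, -0.13 to 0.11 for Rab5a, -0.16 to 0.079 for Rab5c, -0.18 to 0.057 for Snap29, -0.032 to 0.25 for Stx3, -0.043 to 0.14 for Stx5a, -0.17 to 0.12 for Vamp2 and -0.12 to 0.17 for Vamp3. Intervals of the 8 tested members under 2 CPM included no change and also reached beyond a 2-fold change, so a change of that size could have been missed in them.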

Other observations

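Markers of other cell types were summed as a check on the clones, whose label is kidney collecting duct. The 6 proximal tubule markers summed to 700 to 867 CPM in dKO clones and 312 to 410 CPM in control clones, with Lrp2, the endocytic receptor megalin, at 786 ± 87.5 and 360 ± 53.5 CPM (SD, n = 3 each) and called higher (log2 fold change 1.13; limma adjusted p = 0.0252). Lrp2 carried that sum: the other 5 summed to 10.3 to 16 CPM in dKO clones and 7.83 to 17.3 CPM in control clones, and of these Slc5a2 had a positive value (0.40) and Cubn, Hnf4a, Slc22a6 and Slc34a1 negative ones, none called. The 7 intercalated cell markers summed to 19.4 to 46.0 CPM in dKO clones and 26.6 to 45.01 CPM in control clones. The 5 fibroblast markers in the table summed to 1.15 to 4.62 CPM and 1.44 to 5.86 CPM, and 4 blood cell markers to 35.8 to 68.9 CPM and 37.6 to 61.2 CPM, in dKO and control clones. Csf1r carried the blood cell sum, and the other 3 summed to 0.926 to 3.45 CPM in dKO clones and 2.63 to 5.96 CPM in control clones. Their part in the values of the trafficking genes was not tested.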
